A study of Mus musculus with 12 samples.

Results

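Genes that mark the resident macrophages of the heart, C1qa, C1qb, C1qc, Lyz2, Csf1r, Ctss, Mrc1, Cd68, Lgmn and Fcer1g, were followed in ribosome-bound and total poly(A) RNA of adult mouse hearts with and without Rpl3l. The 10 genes were chosen by name out of the 55401 genes counted, as known genes of these cells and with earlier results of these data known. Of the 6596 genes with enough counts for the test, 9 were members; Cd68, with 0 to 12 counts in a library, was not among them. None of the 9 passed the threshold in any comparison of genotype or fraction. The widest fold between group means was that of Ctss, at 15.3 ± 3.84 CPM (counts scaled by library size; mean and SD, n = 3) in total RNA of Rpl3l-null hearts and at 36.9 ± 3.33 to 48.7 ± 15.9 CPM in the other three groups.

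Resident cardiac macrophages lie between the cardiomyocytes, are maintained through the receptor CSF1R, and clear debris and dying cells. C1QA, C1QB and C1QC are the chains of C1q, the recognition molecule of the classical complement pathway, which tissue macrophages make locally. Lysozyme, cathepsin S and legumain act on material the cell has taken up, and CD206 (the product of Mrc1) is a scavenger receptor typical of the resident population.

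The study captured ribosomes from adult hearts of WT and Rpl3l-/- (KO) mice; Rpl3l encodes the paralog of the ribosomal protein RPL3 found in striated muscle. There were 4 groups of 3 libraries each: Input and IP from WT, and Input and IP from KO. Hearts for IP were put in cycloheximide, which stalls ribosomes on mRNA, when they were removed, and ribosomes were pulled down with an antibody to the HA tag. Input RNA came from heart homogenates and was purified with TRIzol, while IP RNA was purified on RNeasy columns, so that purification and fraction changed together and cannot be told apart. The labels give no age beyond adult and no sex or strain, do not name the tagged protein or the cells that carry it, and do not say whether the libraries of a group came from separate animals. P-values therefore measure the spread between these libraries. All libraries were poly(A)-enriched nanopore direct cDNA. In such tissue RNA, fewer macrophages and less RNA per macrophage cannot be told apart.

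Library totals ran from 443525 to 710868 counts in IP and from 169359 to 443177 in Input, and 3 counts stood for 3.74 to 16.2 CPM. Rpl3l, which checks the labels, had 156 to 182 counts in WT IP, 1 to 5 in KO IP, 83 to 125 in WT Input and 7 to 18 in KO Input. Globin transcripts took 1.70% to 17.3% of the counts, most in WT IP replicate 2 (17.3%) and WT Input replicate 3 (13.8%). In the marker lists, cardiomyocyte genes summed to 58332 to 78449 CPM in a library, though Actc1 was listed at 0 in all 12, and erythroid genes to 16154 to 202621 CPM. Lymphocyte markers reached 36.9 CPM at most, with Cd3e, Trbc2, Ms4a1 and Ighm listed at 0 throughout. Whether the counting step left out genes such as these and Actc1 is not known, so the zeros are not read as levels. Neutrophil markers stayed between 3.52 and 41.1 CPM except in KO IP replicate 1, at 144.7 CPM (S100a9 41 counts, S100a8 20), and Mmp8 was at 0 in all libraries.

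The 3 C1q genes lie side by side on the minus strand of chromosome 4 in 18675 bp of GRCm38: C1qb (ENSMUSG00000036905.8, 136880129 to 136886187), C1qc (ENSMUSG00000036896.5, 136889804 to 136893065) and C1qa (ENSMUSG00000036887.5, 136895917 to 136898803). Gaps of 3616 and 2851 bp separate them, and each has 3 exons. Lyz2 (ENSMUSG00000069516.8) is on chromosome 10 at 117277331 to 117282321 and Mrc1 (ENSMUSG00000026712.3), with 30 exons, on chromosome 2 at 14229392 to 14332057. Ctss (ENSMUSG00000038642.10) is on chromosome 3 at 95526786 to 95556403 and Lgmn (ENSMUSG00000021190.14) on chromosome 12 at 102394084 to 102439813. Fcer1g (ENSMUSG00000058715.11) is on chromosome 1 at 171229572 to 171234365 and Cd68 (ENSMUSG00000018774.13) on chromosome 11 at 69664213 to 69666153.

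PU.1, the ETS-family factor that myeloid cells depend on, binds purine-rich sites with the core GGAA, and macrophage promoters often lack a TATA box and carry such sites near the start. C1qa and Csf1r were left out of the promoter search, so the member counts given here do not cover them. Promoter windows (RefSeq, GRCm38.p6, 250 bases before to 50 after the start) of the other 8 members, 9 windows in all, were searched on both strands for AGGAAGT (reverse complement ACTTCCT). It was present in 5 of the 9 windows, those of Mrc1, Ctss, C1qb, C1qc and Lyz2, and in 3072 of all 32851 windows (9.35%). The longer GAGGAAGT, which contains it, was present in 2 member windows (Ctss and C1qc) and in 3.20% of all windows. Counted from the RefSeq start, with the first base of the match, sites lay at -53 in C1qb, -100 in Lyz2, -195 in C1qc, -211 in Mrc1 and -2 in Ctss. The sequences of 4 are shown because they let the match be seen in 2 neighbouring C1q genes, the most abundant member and the receptor Mrc1. Each is the strand of the gene, 5′ to 3′, and covers the window's bases before the most upstream annotated start, with ACTTCCT in capitals. In C1qc, Lyz2 and Mrc1 that start lies before the RefSeq start, so 99, 201 and 228 bases are shown, against 250 in C1qb. In those 3 genes the match is therefore nearer to the end of the printed sequence than its position from the RefSeq start. C1qb is chr4:136886201-136886450, minus strand; C1qc is chr4:136893066-136893164, minus strand; Lyz2 is chr10:117282322-117282522, minus strand; Mrc1 is chr2:14229164-14229391, plus strand.
C1qb: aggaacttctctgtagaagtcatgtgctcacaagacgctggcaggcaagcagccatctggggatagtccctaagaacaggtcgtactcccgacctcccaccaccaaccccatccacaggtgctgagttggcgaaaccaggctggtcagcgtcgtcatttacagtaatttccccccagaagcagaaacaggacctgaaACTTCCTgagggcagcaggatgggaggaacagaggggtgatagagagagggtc
C1qc: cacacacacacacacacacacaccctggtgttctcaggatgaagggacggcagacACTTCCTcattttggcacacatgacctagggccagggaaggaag
Lyz2: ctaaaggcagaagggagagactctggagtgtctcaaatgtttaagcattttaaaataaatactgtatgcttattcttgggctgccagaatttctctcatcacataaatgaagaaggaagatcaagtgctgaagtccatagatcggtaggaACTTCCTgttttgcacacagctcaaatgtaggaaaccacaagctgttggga
Mrc1: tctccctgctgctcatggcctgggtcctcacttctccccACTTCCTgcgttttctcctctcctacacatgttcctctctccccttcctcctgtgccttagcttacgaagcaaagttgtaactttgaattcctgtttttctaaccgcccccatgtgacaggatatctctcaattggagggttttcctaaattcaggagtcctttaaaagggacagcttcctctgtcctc
In all 4 the match reads ACTTCCT on the gene's own strand, so the purine-rich form lies on the opposite strand. These are matches of letters; no binding was measured in these libraries.

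Together the 10 genes took 0.0637% to 0.0947% of the counts of a library, or 147 to 646 counts. Their summed level was 765, 668 and 1095 CPM in the WT Input libraries, 1005, 928 and 835 in KO Input, 844, 1107 and 884 in WT IP and 980, 788 and 864 in KO IP. The means, 843 ± 224, 923 ± 85.1, 945 ± 142 and 877 ± 96.9 CPM (SD, n = 3 each), lay within each other's spread. The highest sums were those of WT IP replicate 2 and WT Input replicate 3, which were also the libraries with the largest globin shares; its part in the result was not tested.

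**Figure D1:**
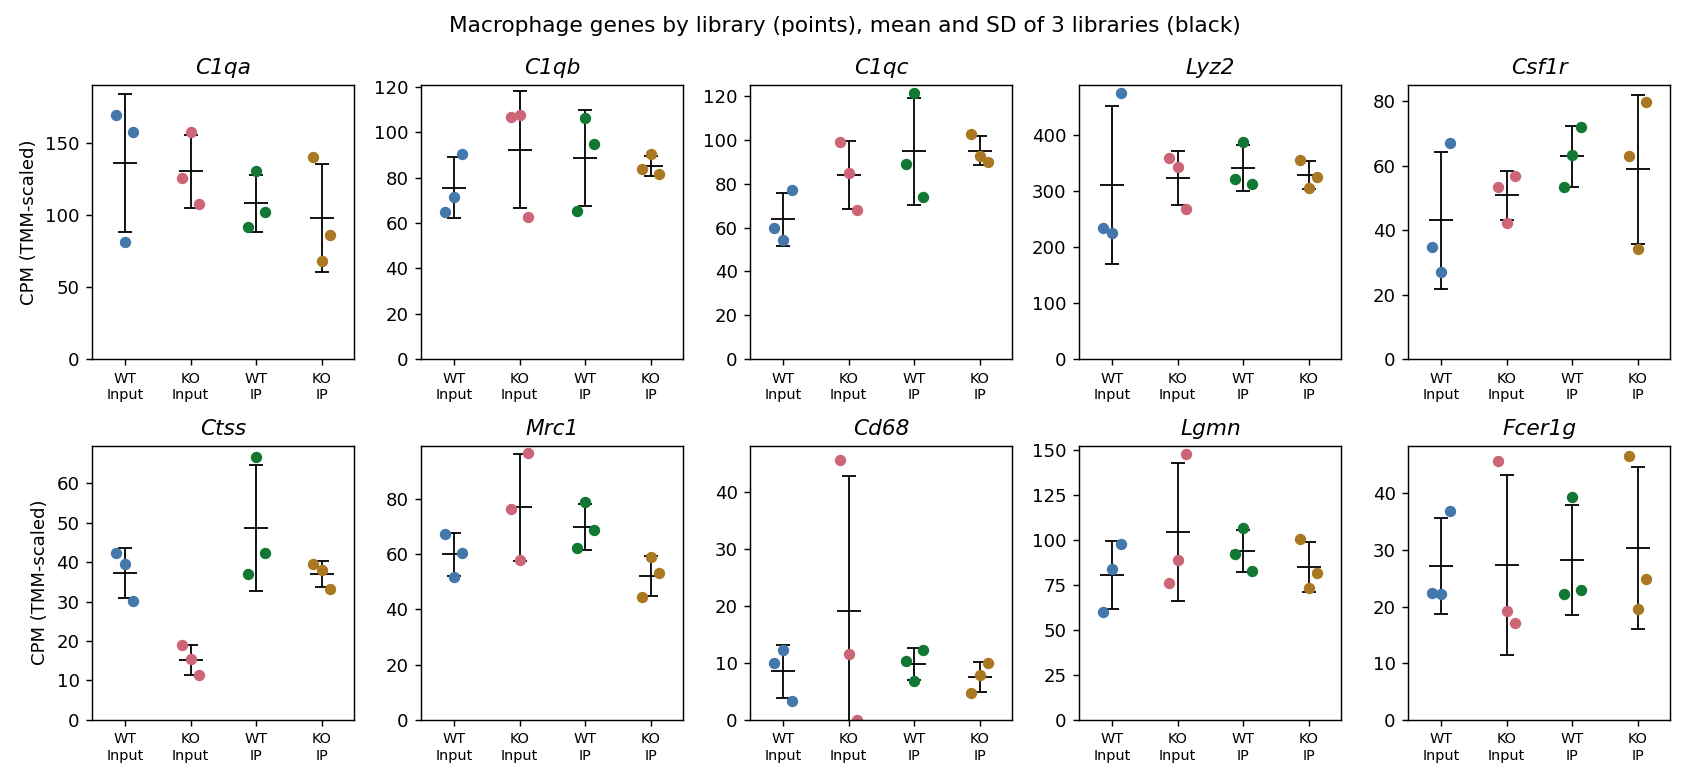
Level of each macrophage gene in CPM (TMM-scaled; linear axes that start at 0 and differ between panels) in the 12 libraries; points are libraries, black bars the mean and SD of 3. Groups overlap in most panels, and the 3 KO Input libraries of Ctss, at 11.4 to 19.0 CPM, lie below all 9 others; the SD bar of Cd68 in KO Input extends below 0 and is cut off there.

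Levels of different genes were compared per kilobase of the longest annotated transcript. In WT Input the order in CPM per kb was Lyz2 (236 ± 107), C1qa (131 ± 46.0), C1qb (69.5 ± 12.3), C1qc (53.0 ± 9.97), Lgmn (40.4 ± 9.56), Fcer1g (39.8 ± 12.4), Ctss (27.6 ± 4.68), Mrc1 (11.1 ± 1.45), Csf1r (9.16 ± 4.52) and Cd68 (6.95 ± 3.78; SD, n = 3 each). Neighbours in that order had overlapping libraries except at 3 steps, Lyz2 to C1qa, Fcer1g to Ctss and Ctss to Mrc1. In KO IP the order began with Lyz2 (249 ± 19.1), C1qa (94.4 ± 36.0), C1qc (79.1 ± 5.60) and C1qb (78.3 ± 4.17), and ended with Ctss (27.3 ± 2.45), Csf1r (12.5 ± 4.93), Mrc1 (9.70 ± 1.36) and Cd68 (6.09 ± 2.17). Lyz2 was first and C1qa second in all 4 groups, and every Lyz2 library stood above every C1qa library of its group. In KO Input, Ctss was at 11.3 ± 2.83 CPM per kb, below Mrc1 (14.3 ± 3.61). The labels do not say how partial reads were counted, and division by transcript length is a convention.

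C1qa, the A chain of C1q, stood at 169, 81.4 and 158 CPM in WT Input (68, 33 and 47 counts) and at 126, 158 and 108 CPM in KO Input. In WT IP it was at 91.8, 130 and 102 CPM and in KO IP at 140, 68.0 and 86.4 CPM. All 4 groups overlapped, with WT Input replicate 2 and KO IP replicate 2 lowest. C1qb, the B chain, was at 64.8, 71.5 and 90.7 CPM in WT Input, 107, 108 and 62.5 in KO Input, 65.1, 106 and 95.1 in WT IP and 84.0, 90.3 and 81.4 in KO IP. The low KO Input library rested on 11 counts. C1qc, the C chain, was at 59.8, 54.3 and 77.3 CPM in WT Input (22 to 24 counts) and 99.0, 84.7 and 68.2 in KO Input (12 to 26 counts). In IP, C1qc stood at 88.8, 122 and 74.0 CPM in WT and 103, 92.9 and 89.8 in KO. WT Input was thus its lowest group, and its top library overlapped both the KO Input and the WT IP libraries.

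Lyz2, the lysozyme of macrophages, was at 234, 224 and 474 CPM in WT Input (94, 91 and 141 counts), 358, 343 and 267 in KO Input, 321, 387 and 312 in WT IP and 355, 305 and 324 in KO IP. WT Input replicate 3 was higher than all other libraries, and the 2 others of its group were the lowest of the 12. Its close copy Lyz1, the lysozyme of the gut, lies beside it and the transcripts agree at 1211 of 1317 aligned positions (91.95%), so reads may be split between them. Lyz1 had 2, 0 and 6 counts in WT Input, 3, 0 and 0 in KO Input, 22, 17 and 21 in WT IP and 10, 24 and 13 in KO IP. Per 100 Lyz2 counts there were 2.45 and 1.30 Lyz1 counts in WT and KO Input, and 9.68 and 8.10 in WT and KO IP. With no filter on counts, Lyz1 was higher in IP than in Input by a log2 fold change of 2.18 in WT (adjusted p = 0.00345, edgeR) and 2.63 in KO (adjusted p = 0.00857). It was examined after its values were seen. Since Lyz1 was low, summing both genes left Lyz2 without a call, at a log2 fold change of 0.25 for IP against Input in WT and 0.10 in KO.

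Csf1r, the receptor for the growth factors CSF1 and IL-34, was at 34.9, 27.1 and 67.2 CPM in WT Input (14, 11 and 20 counts) and 53.3, 42.4 and 56.8 in KO Input (14, 11 and 10 counts). In IP it was at 53.3, 63.4 and 72.2 CPM in WT and 63.0, 34.0 and 79.8 in KO. Its libraries overlapped in every comparison. Csf1r (ENSMUSG00000024621.16) lies on chromosome 18 at 61100598 to 61132149. From start to end of the genes, it shares 873 bp with Hmgxb3 on the opposite strand, which held 14 counts over the 12 libraries. Whether exons of Csf1r lie in the shared part was not examined. Mrc1, the mannose receptor, was at 67.3, 51.8 and 60.5 CPM in WT Input, 76.2, 57.8 and 96.6 in KO Input, 62.2, 78.8 and 68.7 in WT IP and 44.3, 58.9 and 53.2 in KO IP. The 3 KO IP libraries lay below the 3 WT IP libraries, with 58.9 against 62.2 CPM as the nearest values. Fcer1g, the ITAM-bearing gamma chain of Fc receptors, had 3 to 12 counts in Input and 13 to 23 in IP. It was at 22.4, 22.2 and 36.9 CPM in WT Input, 45.7, 19.3 and 17.0 in KO Input, 22.2, 39.4 and 22.9 in WT IP and 46.7, 19.6 and 24.9 in KO IP. In each group 1 library stood well above the other 2.

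Ctss, the cysteine protease cathepsin S, trims the invariant chain of MHC class II and stays active at neutral pH. It was at 42.4, 39.5 and 30.2 CPM in WT Input (17, 16 and 9 counts) and at 19.0, 15.4 and 11.4 CPM in KO Input (5, 4 and 2 counts). In IP it stood at 37.0, 66.8 and 42.3 CPM in WT (25, 39 and 24 counts) and 39.7, 37.9 and 33.2 CPM in KO (17, 29 and 20 counts). From start to end of the genes, Ctss shares 557 bp with the pseudogene Hmgb1-ps5 on the same strand, which held 1 count over the 12 libraries. Whether exons of Ctss lie in the shared part was not examined. The KO Input libraries of Ctss did not overlap any other group, and they are also the 3 smallest libraries; once all libraries were thinned to the smallest total, Ctss no longer had enough counts for the test. Lgmn, the asparaginyl endopeptidase legumain, which activates cathepsins by cleavage, was at 59.8, 83.8 and 97.4 CPM in WT Input and 76.2, 88.6 and 148 in KO Input. In IP it was at 91.8, 106 and 82.8 CPM in WT and 100.3, 73.3 and 81.4 in KO. Lgmn overlapped between all groups, with KO Input replicate 3 highest on 26 counts. Cd68, a membrane glycoprotein of macrophage lysosomes, had 4, 5 and 1 counts in WT Input, 12, 3 and 0 in KO Input, 7, 4 and 7 in WT IP and 2, 6 and 6 in KO IP. The count of 0 in KO Input replicate 3 allows up to 16.2 CPM. Fitted with no filter on counts, its log2 fold change for KO against WT was 1.14 in Input (interval -0.31 to 2.59, adjusted p = 0.905 in edgeR) and -0.35 in IP. For IP against Input it was 0.21 in WT and -1.28 in KO (interval -2.66 to 0.10, adjusted p = 0.382). The pooled KO counts, 14 in IP and 15 in Input, gave a ratio of 0.363 with a counting interval of 0.162 to 0.807, and 12 of the 15 came from KO Input replicate 1.

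Whether loss of Rpl3l went with a change of macrophage transcripts in total RNA was tested as KO against WT in Input. No member passed an adjusted p of 0.05 in edgeR's quasi-likelihood test (0 of 9, against 0.182% of the 6596 genes, 12 in all), and 0 of 9 passed with DESeq2 or with limma-voom. At an unadjusted p under 0.05 in edgeR there was 1 member, Ctss, and 7.11% of all genes. The unadjusted p of Ctss was 0.0326 with the DESeq2 test and 0.0823 with limma-voom. Ctss was lower in KO by a log2 fold change of -1.25 (SE 0.45, 95% interval -2.18 to -0.32, unadjusted p = 0.0102, adjusted p = 0.526 in edgeR), a 2.38-fold lower level in 3 of 3 libraries. Pooled, this was 11 counts in KO against 42 in WT, a ratio of 0.414 with an exact 95% interval of 0.192 to 0.819 that covers counting error only. With 2 to 5 counts a library in KO Input, Ctss passed the count filter only through the other groups, which limits what its estimate can show. It was the only member whose genotypes did not overlap in Input; 6.20% of all genes were likewise lower without overlap and 6.17% higher.

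The other 8 members ran from -0.03 (C1qa) to 0.44 (C1qc) on the log2 scale in Input. C1qc (interval -0.15 to 1.02), C1qb and Lgmn (both 0.34), Mrc1 (0.33) and Csf1r (0.27) had positive estimates, and Lyz2 was at 0.09 (interval -0.38 to 0.56). In all, 7 of 9 estimates were positive, against 49.4% of all genes, with a median of 0.27 against -0.01 over all genes; adjusted p ran from 0.526 to 0.987. Lyz2 turned on WT Input replicate 3: without it and WT IP replicate 2, the 2 libraries richest in globin, its log2 fold change was 0.50 (unadjusted p = 0.0209, adjusted p = 0.752 in edgeR).

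In ribosome-bound RNA, the same genotype comparison gave the members estimates from -0.40 to 0.05 on the log2 scale. None was called (0 of 9, against 0.0910% of all genes, 6 in all, in edgeR), 0 of 9 passed with DESeq2 or limma-voom, and none had an unadjusted p under 0.05, where 5.20% of all genes did. Mrc1 had the lowest estimate, a log2 fold change of -0.40 (SE 0.25, interval -0.92 to 0.12, adjusted p = 0.965 in edgeR). Its KO libraries lay below the WT ones, as did those of 5.44% of all genes, while 5.40% lay above. Ctss was at -0.39, with overlapping libraries. The 3 C1q genes were at -0.18 (C1qa), -0.05 (C1qb) and -0.00 (C1qc), Lyz2 at -0.06 (interval -0.48 to 0.37), Lgmn at -0.16, Csf1r at -0.11 and Fcer1g at 0.05. The median was -0.11 against 0.00 over all genes, and 1 of 9 estimates was positive against 50.0% of all genes. For Lyz2, with 152 to 233 counts a library, the interval spans a 0.717- to 1.29-fold level, while for Fcer1g it spans 0.581- to 1.84-fold.

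**Figure D2:**
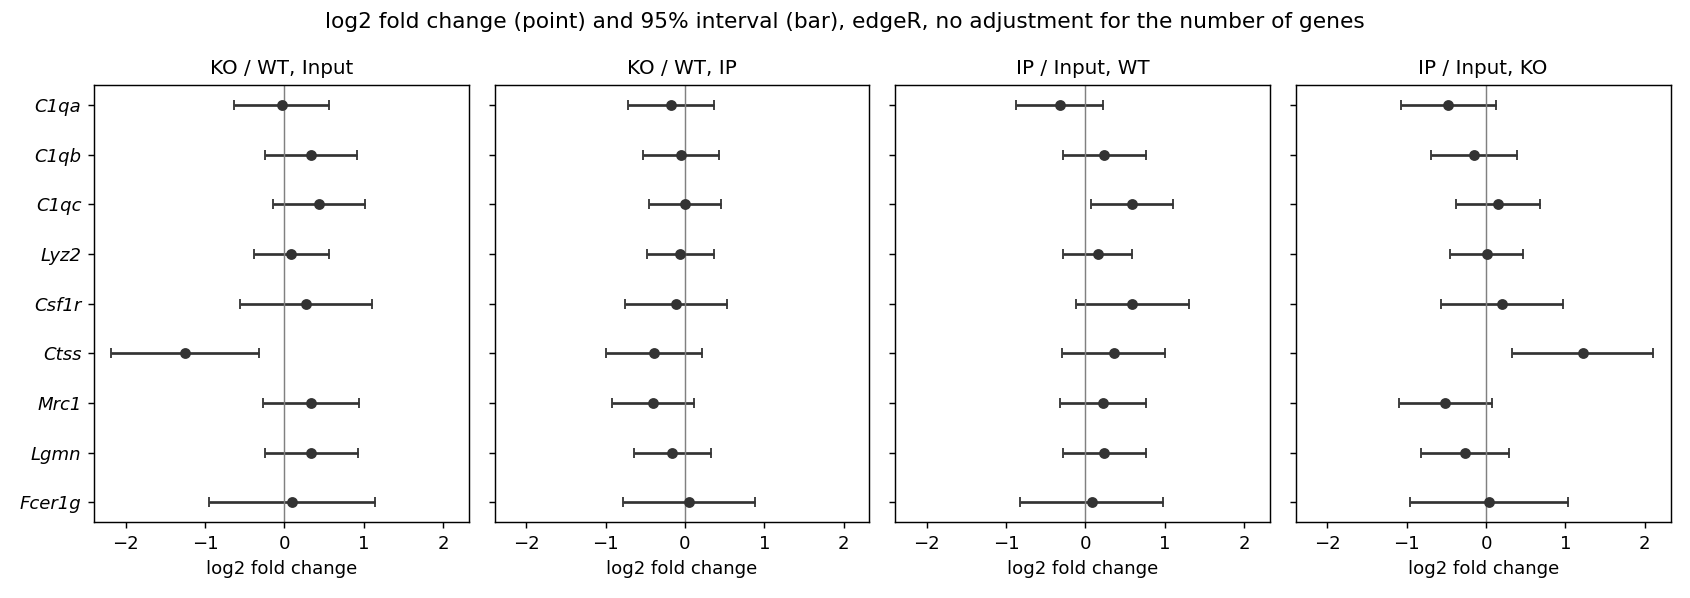
Log2 fold change (x axis; point) with its 95% interval (bar) for the 9 tested macrophage genes (y axis) in the 4 comparisons, from the edgeR model without adjustment for the number of genes. The intervals of Ctss exclude 0 for KO against WT in Input (-2.18 to -0.32) and IP against Input in KO (0.32 to 2.11), and that of C1qc for IP against Input in WT (0.07 to 1.10); none of the 3 passed after adjustment.

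Pulldown was compared with total RNA within each genotype. In WT hearts no member was called (0 of 9, against 14.0% of all genes, 926 in all, in edgeR; 0 of 9 with DESeq2 or limma-voom), and 1 of 9 had an unadjusted p under 0.05, against 27.8% of all genes. That member was C1qc, higher in IP by a log2 fold change of 0.59 (SE 0.25, interval 0.07 to 1.10, adjusted p = 0.120 in edgeR), with overlapping libraries. Csf1r was also at 0.59, with a wider interval of -0.12 to 1.30. The rest were at 0.36 (Ctss), 0.24 (C1qb and Lgmn), 0.22 (Mrc1), 0.15 (Lyz2), 0.08 (Fcer1g) and -0.33 (C1qa). In all, 8 of the 9 estimates were above 0, against 51.1% of all genes, and the median was 0.24 against 0.02 over all genes. No member had fractions without overlap, against 16.4% of all genes that were higher and 18.2% lower in IP. C1qb and C1qc had positive estimates and C1qa a negative one, with intervals of -0.28 to 0.76 and -0.87 to 0.22 for C1qb and C1qa.

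In KO hearts no member was called either (0 of 9, against 16.4% of all genes, 1083 in all, in edgeR; 0 of 9 with DESeq2 or limma-voom). Ctss was the 1 member with an unadjusted p under 0.05, against 29.4% of all genes. Ctss was higher in IP by a log2 fold change of 1.22 (SE 0.43, interval 0.32 to 2.11, adjusted p = 0.0562 in edgeR), 2.32-fold, in 3 of 3 libraries, and 15.2% of all genes were likewise higher without overlap and 15.6% lower. The pooled counts were 66 and 11, a ratio of 2.33 with a counting interval of 1.22 to 4.90. With libraries scaled by their totals, Ctss passed (log2 fold change 1.37, adjusted p = 0.0287 in edgeR). Its adjusted p was 0.147 with the DESeq2 test and 0.276 with limma-voom. This comparison and that of the genotypes in Input share the 3 KO Input libraries, with their 11 Ctss counts. At 2 to 5 counts in each of them, Ctss passed the count filter only through the other groups, a limit for both comparisons. Mrc1 and C1qa had the lowest estimates, -0.51 (interval -1.09 to 0.07, adjusted p = 0.237) and -0.47 (interval -1.07 to 0.12, adjusted p = 0.289), and Lyz2 was at 0.01 (interval -0.45 to 0.46). The median was 0.01, as over all genes, and 5 of 9 estimates were positive against 50.4% of all genes.

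The difference between the genotypes in the IP to Input ratio was tested as an interaction. No member passed (0 of 9, against 0.0910% of all genes, in edgeR; 0 of 9 with DESeq2 or limma-voom), and none had an unadjusted p under 0.05, against 7.02% of all genes. Ctss had the only positive estimate, 0.86 (SE 0.55, interval -0.26 to 1.98, adjusted p = 0.798 in edgeR). Mrc1 was lowest at -0.73 (SE 0.39, interval -1.53 to 0.06, adjusted p = 0.754), with 66 counts in WT Input, 52 in KO Input, 127 in WT IP and 96 in KO IP. Lgmn was at -0.50, C1qc at -0.44, C1qb and Csf1r at -0.39, and C1qa, Lyz2 and Fcer1g at -0.15, -0.15 and -0.05. The median was -0.39 against 0.01 over all genes, where 50.6% were positive.

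How the members varied together was described from each library's deviation from its own group mean (log2 CPM, 12 libraries). Over the 36 pairs of the 9 tested members the median Pearson's r was 0.27, with a range of -0.39 to 0.79 and 28 pairs above 0. The highest were C1qc with Fcer1g (0.79), C1qc with Lyz2 (0.78), Lyz2 with Fcer1g (0.65) and C1qb with Lyz2 (0.64). Among the C1q genes, r was 0.63 for C1qb with C1qc, 0.54 for C1qa with C1qc and 0.33 for C1qa with C1qb. With the summed level of the members, of which it is the largest part, Lyz2 had an r of 0.93, C1qc 0.84 and Fcer1g 0.78, while Lgmn (0.22), Ctss (0.21) and Mrc1 (0.00) were nearer 0. These libraries share depth, scaling and globin content, so such values describe the libraries only.

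Of 3022 other genes with a mean of at least 50 CPM, the 5 most like the summed members were Timm50 (r = 0.94), Hexa (0.92), Gys1 (0.89), Cops9 (0.89) and Cdc42 (0.87). Timm50 is a subunit of the mitochondrial inner membrane translocase, Hexa the alpha subunit of the lysosomal hexosaminidase, Gys1 the glycogen synthase of muscle, Cops9 a COP9 signalosome subunit and Cdc42 a small GTPase. The median r over all 3022 was 0.04 and the 95th percentile 0.63.

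**Figure D3:**
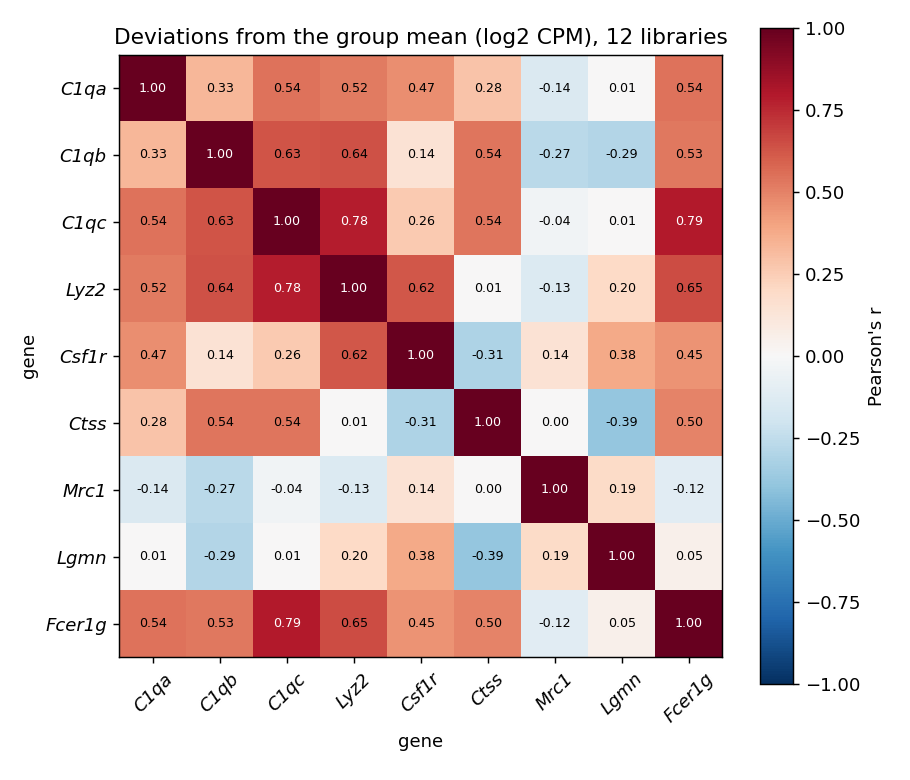
Pearson's r (colour) between the 9 tested macrophage genes (both axes), from deviations of log2 CPM from the group mean in 12 libraries. C1qc, Lyz2 and Fcer1g form the block of highest values (0.65 to 0.79), and Mrc1 lies near or below 0 with most others.

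The genes that act with the members were read from lists chosen by function. Of 16 complement partners and regulators, 10 were tested, and none passed for genotype in Input or IP. All 10 had positive estimates for KO against WT in Input (median 0.25, against -0.01 and 49.4% positive over all genes) and 5 of 10 in IP (median 0.02), with the smallest p for Serping1, the C1 inhibitor, in Input (0.63, unadjusted p = 0.0171, adjusted p = 0.577 in edgeR). For IP against Input, 1 of the 10 fell in WT and 2 in KO, against 14.0% and 16.4% of all genes called in either direction. Cfd (adipsin, also made by adipocytes) was lower in WT by -3.35 (adjusted p = 6.16e-06) and in KO by -3.13 (adjusted p = 1.41e-05). The adipocyte markers Ucp1 and Car3 were lower in IP too, by -5.60 and -3.54 in WT and by -4.49 and -3.64 in KO (adjusted p of at most 0.0282); their part in the Cfd result was not tested.

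Of 12 cathepsins and cystatins beside Ctss, 11 were tested. None passed for genotype. For IP against Input in WT, where 14.0% of all genes were called, 2 of 11 fell, Ctsl (cathepsin L, -0.59, adjusted p = 0.0219 in edgeR) and Cst3 (cystatin C, an inhibitor of cathepsin S among others, -0.51, adjusted p = 0.0362), and in KO none passed. Of 13 Fc receptor and ITAM genes only 4 were tested and none passed in any comparison. Tyrobp, an adaptor like Fcer1g, was at 32.4, 37.0 and 63.8 CPM in WT Input (13, 15 and 19 counts). In KO Input it was at 19.0, 30.8 and 28.4 CPM (5, 8 and 5 counts; log2 fold change -0.74, adjusted p = 0.774 in edgeR). Of the 4 tested genes, 2 had positive and 2 negative estimates in that comparison. Of 10 CSF1-axis and myeloid factor genes, 3 were tested (Csf1, Cebpb and Maf) and none passed; Spi1, which encodes PU.1, had 0 to 11 counts a library.

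Other genes of resident macrophages were mostly too low to test, 7 of 18 passing the filter. Lyve1 had 2 to 28 counts a library, Timd4 0 to 6 and Adgre1, the F4/80 antigen, 2 to 9, and Fcna was at 0 in all. None passed for genotype. Cbr2, a carbonyl reductase of this population, had 25, 9 and 85 counts in WT Input and 5, 3 and 4 in KO Input, with overlap in CPM (log2 fold change -2.74, adjusted p = 0.146 in edgeR), and 285 CPM in WT Input replicate 3 against 22.2 to 62.3 in the rest of its group. It fell in IP in WT (-1.58, adjusted p = 0.0364) with overlapping libraries, and stood at 1.22 in KO (adjusted p = 0.296). Selenop fell in IP in KO (-0.58, adjusted p = 0.0260).

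Monocyte genes summed to 42.3 to 107 CPM a library; Ccr2, the receptor of recruited monocytes, had 0 to 5 counts and Plac8 was at 0 in all KO IP libraries. Of 11, only Lgals3 was tested, and it fell in IP in KO (-2.89, adjusted p = 0.00606, 21 counts in Input against 7 in IP) with -1.56 in WT (adjusted p = 0.124). Among 13 pan-leukocyte genes, 6 were tested; Lcp1 (L-plastin) rose in IP in WT (1.51, adjusted p = 0.0345), and none other passed. The MHC class II genes, whose invariant chain Ctss cleaves, were tested for 4 of 6. All 4 had negative estimates for KO against WT in Input (median -0.81, smallest adjusted p = 0.164, with 49.4% of all genes positive) and positive ones in IP (median 0.32, smallest adjusted p = 0.943, with 50.0% positive). Cd74, which encodes the invariant chain, stood at 214, 148 and 296 CPM in WT Input and 103, 139 and 90.9 in KO Input. In IP, Cd74 was at 181, 194 and 174 CPM in WT and 245, 199 and 226 in KO, and in KO it was higher in IP than in Input (0.98, adjusted p = 0.00494 in edgeR). For Cd74 and for Ctss alike, KO Input was the lowest of the 4 groups. In IP, Ctss was at -0.39 for KO against WT, where the 4 class II genes had positive estimates. For IP against Input in WT, Ctss was at 0.36. All 4 class II genes were negative there (median -0.38, with 51.1% of all genes positive).

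**Figure D4:**
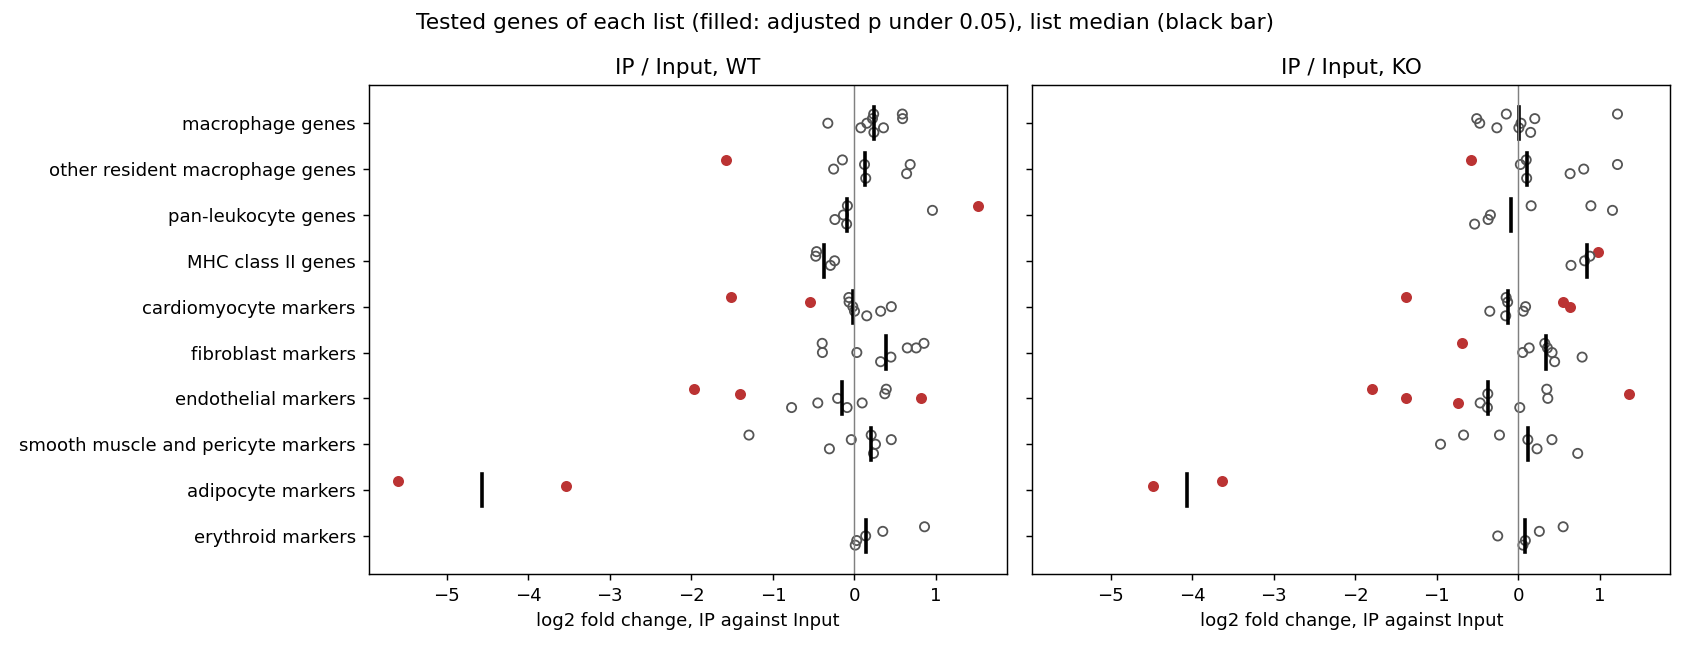
Log2 fold change of IP against Input (x axis) in WT and KO for each tested gene of 10 lists (y axis); filled points have an adjusted p under 0.05 and black bars are list medians. The 9 macrophage genes hold no filled point, with medians of 0.24 in WT and 0.01 in KO, while both adipocyte markers are filled and far below 0.

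Markers of other cell types in the heart gave the scale of the pulldown. Over all genes 14.0% were called in WT and 16.4% in KO. Of 9 tested cardiomyocyte genes, 0 were higher and 2 lower in IP in WT (Mb -1.51, Myh6 -0.54), and 2 were higher and 1 lower in KO (Ryr2 0.55, Tnnt2 0.64, Mb -1.38). The list medians were -0.02 and -0.13, against 0.24 and 0.01 for the macrophage genes. Of 10 endothelial genes, 1 was higher (Flt1) and 2 were lower (Egfl7 and Esam) in WT, and 1 was higher and 3 were lower in KO. Of 8 tested fibroblast genes, Col3a1 alone passed, in KO (-0.69). The difference between the macrophage genes and these lists was not tested.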

How the data were processed

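Poly(A) RNA of 12 heart libraries (WT and KO, Input and IP, 3 each) was read as nanopore direct cDNA, per the labels' protocols. The authors deposited 1 whole-number count per gene and library. The submitters' processing notes name minimap2 2.14, DESeq2 1.34.0 and build GRCm38, and no counting rule is given there or in the labels. Gene IDs were matched without version to GENCODE M21, 55141 of 55401. The members and lists were chosen with earlier results of these data known.

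From the deposited counts, those of genes kept by filterByExpr were fitted with edgeR 4.0.16 (R 4.3.3, limma 3.58.1) by quasi-likelihood, with TMM factors and 1 mean per group over all 12 libraries. The filter asked for the CPM equal to 10 counts at the median library size in at least 3 libraries of any group, and a total of 15. A tested gene can therefore have fewer counts in a whole group. P-values were adjusted by Benjamini-Hochberg over 6596 genes within each of the comparisons, with a threshold of 0.05. The SE is the log2 fold change divided by the square root of F. A comparison of 3 libraries with 3 by exact permutation cannot go below p = 0.10, so calls rest on the model. Intervals of pooled counts are exact and, like the limit of 3 counts for a count of 0, cover counting error only. Named genes were the 10 members, Rpl3l, called genes of each list with the smallest p, up to 3 per comparison, and the 5 genes most like the summed members; a few others were picked with their values in view. The test was checked on simulated counts. These gave all genes the same dispersion, so the check does not cover differences in spread between genes. Alternatives were DESeq2 size factors and test (DESeq2 1.42.0), library totals, no filter, a stricter filter (30 counts in 3 libraries), limma-voom, fits of only the libraries compared, the replicate number as a block, globin genes left out, libraries thinned to 169359 counts and each library left out in turn. Leaving out 2 globin-rich libraries together and summing Lyz1 with Lyz2 were added after seeing the data. Promoters are from RefSeq. Of the genes called in the lists, 1 is not reported here.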

Additional observations from a re-analysis of the deposited data

How the results depend on the processing

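The count of members past the threshold was 0 in every comparison and stayed at 0 in 113 of 114 recomputed counts. The exception was IP against Input in KO with library totals, where it was 1 (Ctss, 1.37). With that scaling the median over all genes moved by 0.15, and relative to the median Ctss was at 1.22, against 1.21 with TMM; the cause was not tested. Ctss for KO against WT in Input was below 0 under all 20 alternatives that tested it, at -1.45 to -1.12 without each library in turn; its counts kept it out of the test in thinned libraries, with the stricter filter and with the Input libraries fitted alone. Thinned, 3177 genes and 7 members were tested, and over all genes 8, 6, 491, 662 and 0 passed in the 5 comparisons, in the order of the report, against 12, 6, 926, 1083 and 6. Over all genes, KO against WT called 77 in Input and 55 in IP with no filter and 5 in Input with the stricter filter, 11 in IP with the DESeq2 test, and the interaction called 37 with no filter and 1 with limma-voom. Without WT Input replicate 1 the 5 counts were 4, 3, 601, 1001 and 1. KO against WT called 5 in Input without KO Input replicate 3 and, in IP, 2 when WT IP replicate 1 was dropped and 3 when either the second WT or the third KO library was; the interaction called 3 without WT IP replicate 3. Without WT IP replicate 2 and WT Input replicate 3 together, KO against WT in IP called 3, IP against Input in WT 424 and the interaction 1. Of 1007 recomputed member values, 72 changed sign, none past the threshold, and the cause was not tested. For KO against WT in IP these were C1qc with DESeq2 size factors (0.00093), the DESeq2 test (0.0018), a stricter filter (0.0231), limma-voom (0.0239), the replicate block (0.0071) and thinning (0.57), Csf1r with thinning (0.42) and Fcer1g with limma-voom (-0.0313). With library totals they were C1qa for KO against WT in Input (0.0251), C1qb, C1qc and Lyz2 for KO against WT in IP (0.0783, 0.131 and 0.0644), C1qb for IP against Input in KO (0.0089) and Fcer1g for the interaction (0.0348). For IP against Input in KO they were Lyz2 with a stricter filter (-0.0212), the replicate block (-0.0024), globin genes left out (-0.0037) and thinning (-0.0596), and Fcer1g with limma-voom (-0.0819). C1qa for KO against WT in Input was at 0.0464 with limma-voom, Csf1r with thinning at -0.27, and Csf1r for the interaction with thinning at 0.69. Without WT IP replicate 2 and WT Input replicate 3 together, C1qa for KO against WT in Input was at 0.0746, C1qb, C1qc and Lyz2 in IP at 0.10, 0.21 and 0.0450, Ctss for IP against Input in WT at -0.0352 and Fcer1g for the interaction at 0.0241.

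Leaving out each library in turn changed the sign of 18 results. For KO against WT in Input, C1qa ran from -0.32 to 0.17, Fcer1g from -0.54 to 0.33 and Lyz2 from -0.10 to 0.50. For KO against WT in IP, C1qa ran from -0.49 to 0.0443, C1qb from -0.24 to 0.10, C1qc from -0.14 to 0.21, Csf1r from -0.43 to 0.20, Fcer1g from -0.34 to 0.36 and Lyz2 from -0.11 to 0.0386. For IP against Input in WT, Fcer1g ran from -0.23 to 0.32 and Lyz2 from -0.0398 to 0.56. For IP against Input in KO, Csf1r ran from -0.10 to 0.53, Fcer1g from -0.34 to 0.66, Lgmn from -0.45 to 0.0298 and Lyz2 from -0.0972 to 0.0889. For the interaction, C1qa ran from -0.46 to 0.13, Fcer1g from -0.43 to 0.58 and Lyz2 from -0.56 to 0.0427. No pairing by replicate number was seen. Correlations of deviations between libraries of the same number ran from -0.217 to 0.0747 over 3029 genes, and the own number was best in 6 of 36 cases. These cases include WT set against KO. Between IP and Input of the same genotype and number, r ran from -0.0478 to -0.0059. The labels do not say whether Input and IP share hearts, and values near 0 at this depth cannot decide it. With the replicate block, the count of members stayed at 0 in every comparison.

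Depth limits these genes most in Input, where Ctss had 2 to 17 counts, Fcer1g 3 to 12 and Cd68 0 to 12 a library.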
